A study of Mus musculus with 2 samples.

Results

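The G2 and mitosis genes examined here are 34 mouse genes that act between the end of DNA replication and the separation of the daughter cells. They were taken from a fixed list by function, and each was found on the arrays through the RefSeq accession of its probes, with probes of the older name Cdc2a counted for Cdk1. All 34 had at least 1 probe, of 20659 genes with a probe in all. The 34 genes were covered by 57 spots, of which 1 was left out and the rest belonged to 47 probes, and 33 of the genes, all but Cenpf, were measured on both arrays. The samples were leukaemic cells of a B-cell acute lymphoblastic leukaemia (B-ALL), sorted from bone marrow into SoNar-high and SoNar-low cells. SoNar is a fluorescent sensor protein that reports the ratio of NADH to NAD+ in the cytosol, and the sort used the ratio of its fluorescence at a pair of wavelengths. Both groups came from mice of the strain C57BL at 8 weeks of age, and each was measured on 1 Agilent 1-colour array. The labels name no treatment and do not state the genotype, the number of mice or how the leukaemia was made. The titles call the SoNar-high sample N-myc-high and the other one N-myc-low, and no label explains that name. The comparison addresses how the division genes are expressed in leukaemic cells with a high and a low sensor ratio.

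Entry into mitosis is driven by the kinase CDK1 bound to cyclin A or cyclin B, which the CDC25 phosphatases switch on. The kinases PLK1, Aurora A and Aurora B then organise the spindle and the chromosomes, the spindle checkpoint holds the cell until every chromosome is attached, and the anaphase-promoting complex with CDC20 ends mitosis by marking cyclin B and securin for destruction. Transcripts of these genes accumulate in dividing cells, and in lymphoid leukaemia they are widely used as signs of proliferation. Many of their promoters carry a cell cycle homology region (CHR), bound by the MuvB complexes DREAM and MMB, and CCAAT boxes, bound by the factor NF-Y.

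The SoNar-high array had 72.9% of its 43020 non-control spots well above background, the SoNar-low array had 44.8%, and no array had a saturated spot (0 in all). The arrays were scanned in different sessions, so scan session and group cannot be told apart. Since each group is 1 array, differences have no replicate check, nothing was tested, and precision is limited by the number of arrays. The levels are log2 processed signals relative to the 75th percentile of each array, and a difference is SoNar-high minus SoNar-low on that log2 scale. A gene was called at a 2-fold difference, an absolute log2 difference of 1. The scanner software gives each spot an error, and for 1 bright probe on the 2 arrays this comes to an error of about 0.20 in the log2 difference. Where a probe was spotted several times, the median SD of the difference between its repeat spots was 0.15, over 198 probes. Neither error includes variation between mice, sorts or labelling reactions. The RNA is from sorted cells in bulk, so a larger share of cells in G2 or mitosis and more transcript per cell cannot be told apart.

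Aurkb and Cdk1 had the highest differences of the division genes, and the other measured members lay within 2-fold in either direction. Of the 33 measured members, 2 were at least 2-fold higher in SoNar-high, namely Aurkb and Cdk1, and 0 were at least 2-fold lower. Among all 10517 genes measured on both arrays, 4.87% were past 2-fold upwards in SoNar-high and 1.68% downwards. The members' share of 6.06% is therefore close to the background, and the count alone is no result about this group of genes. The median log2 difference of the measured members was -0.28, beside -0.17 for all genes. Of the 33, 16 had a difference above that all-gene median and 17 one below it. Relative to all genes the members' median was 0.06 with quantile normalization and 0.05 in the authors' deposited table. In the other settings it was between -0.37 and -0.04. The 31 members other than Aurkb and Cdk1 ranged from -0.80 to 0.78, with an SD of 0.40 across genes. Zero has no fixed meaning here, since scaling the arrays on their medians shifts every difference by -0.61. With that scaling 13 members, and 31.4% of all genes, were at least 2-fold lower, while Aurkb and Cdk1 were still at least 2-fold higher. Across the 12 settings compared, 16 of these 31 genes were below 0 in every setting, 1, Ttk, was above 0 in every setting, and 14 changed sign.

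**Figure D1:**
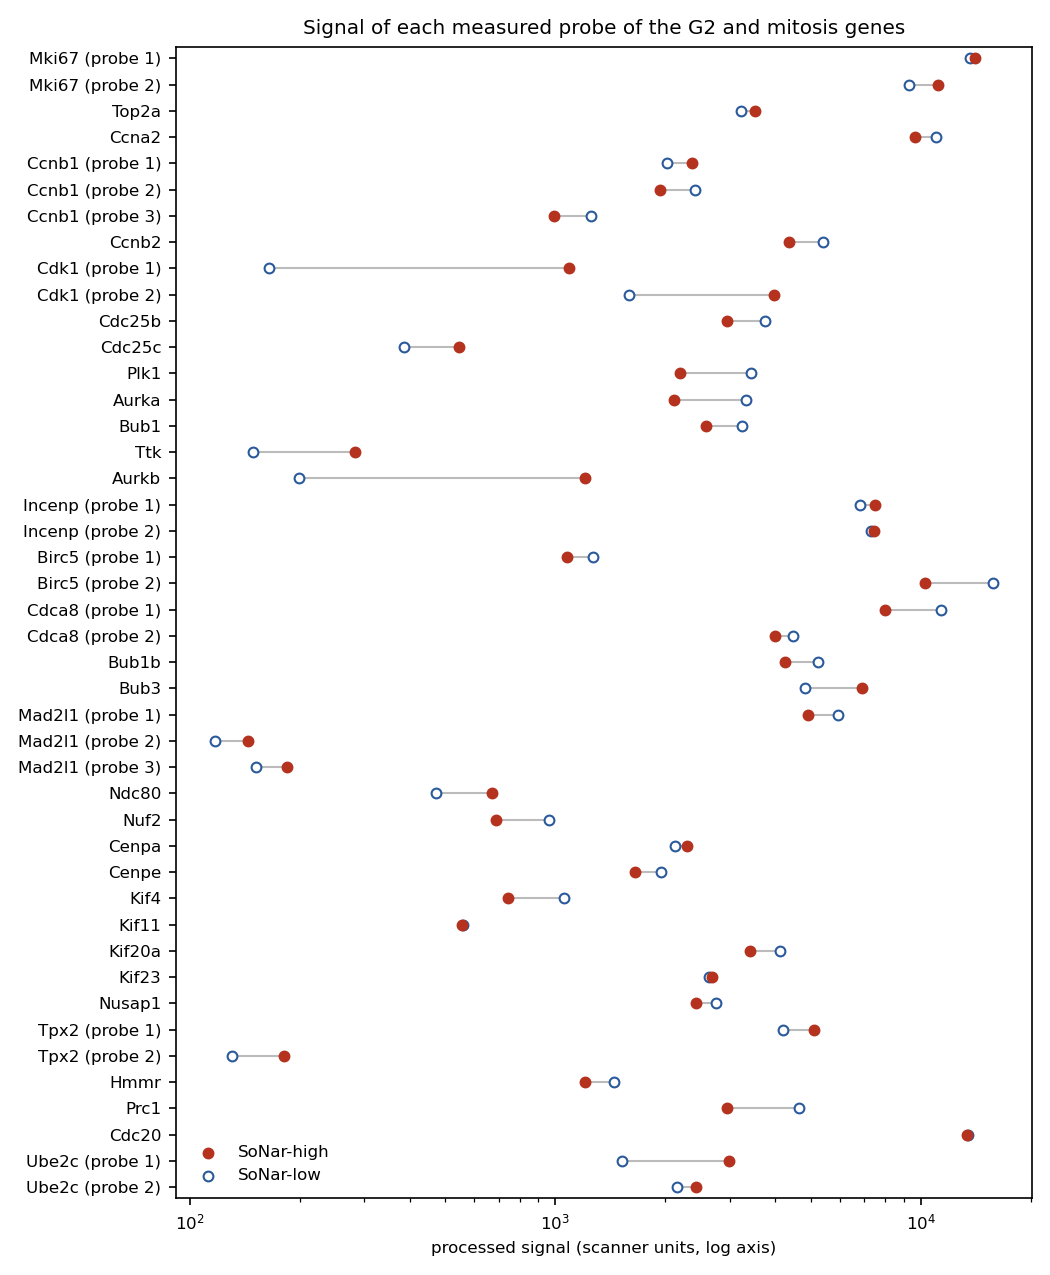
Processed signal (scanner units, log axis) of each member probe that was well above background on both arrays, with SoNar-high as filled red circles and SoNar-low as open blue circles joined by a line, 1 array per group. The wide gaps are those of Aurkb, with 1205 in SoNar-high and 199.5 in SoNar-low, and of both Cdk1 probes, while most other pairs lie close together.

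The chromosomal passenger complex joins the kinase Aurora B to its scaffold INCENP and to the targeting subunits survivin and borealin, encoded by Birc5 and Cdca8. Its kinase gene differed between the arrays and its other genes did not follow. The only Aurkb probe, A_55_P1980631, had a processed signal of 1205 in SoNar-high and 199.5 in SoNar-low. Both signals were well above background, the lower of them clear of the dimmest detected signal of the SoNar-low array, 46.4. The log2 difference was 2.45, with a spot error of 0.22, which is 5.46-fold after scaling. Aurkb was the 18th highest of the 10517 genes.

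The scaffold gene Incenp was measured by a pair of probes that gave nearly the same result. Probe A_55_P1978201 had 7492 in SoNar-high and 6834 in SoNar-low, and probe A_55_P2028054 had 7426 and 7294 in the same order of groups. Their log2 differences were -0.01 and -0.12, each smaller than the spot error. Birc5 encodes survivin, which binds the centromeric histone mark that recruits the complex. Its probe A_55_P1983773 had 10293 in SoNar-high and 15760 in SoNar-low, and probe A_55_P1983768 had 1075 in SoNar-high and 1272 in SoNar-low. The mean log2 difference of these Birc5 probes was -0.57. Cdca8 had signals of 7993 in SoNar-high and 11330 in SoNar-low with probe A_51_P155142, and of 4002 in SoNar-high and 4474 in SoNar-low with probe A_55_P2170681, for a mean log2 difference of -0.48.

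The 3 partners averaged a log2 difference of -0.37, and Aurkb exceeded that mean by 2.82. A shift of a whole array cancels in this contrast, so the settings that only shift an array leave it at 2.82 by construction. The looser filters and the common limit also left it at 2.82, since they did not change the probes used. Over the 12 settings it lay between 2.47 and 2.96. The genes in it were chosen with earlier results of these data known. The contrast still rests on 1 Aurkb probe. Of the 8123 genes with 1 measured probe, 5.84% reached 2-fold upwards and 2.11% downwards. The related kinase gene Aurka, which acts at the spindle poles, had signals of 2118 in SoNar-high and 3325 in SoNar-low and a log2 difference of -0.80, so that Aurkb exceeded Aurka by 3.24.

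CDK1 is the kinase that drives entry into mitosis, and its gene was higher in SoNar-high with each probe. Probe A_55_P2048588 had 3956 in SoNar-high and 1596 in SoNar-low, a log2 difference of 1.16. Probe A_55_P2016652 had 1089.8 in SoNar-high and 165 in SoNar-low, a log2 difference of 2.58. These probes of 1 gene thus gave 2.24-fold and 5.97-fold, which is a gap of 1.41 on the log2 scale and far above the spot errors of 0.20 and 0.22. Another probe, A_55_P2016647, had 61.8 in SoNar-high, where it was well above background, and 17.8 in SoNar-low, where it was not. For that probe SoNar-high was at least 1.21-fold higher. The bound takes its normalized level in SoNar-high against the lowest detected level of the SoNar-low array.

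The mean log2 difference of Cdk1 was 1.87, or 3.66-fold, the 74th highest of all measured genes. Of 2394 genes with several measured probes, 0.334%, or 8 genes, were at least 2-fold higher in every one of them. Cdk1 was the 1 member among these, out of 9 members with several measured probes. With the brightest probe alone the difference of Cdk1 was 1.16, the lowest of the 12 settings.

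The cyclins that activate CDK1 did not share this difference. Ccna2, the cyclin of S phase and early mitosis, had 9609 in SoNar-high and 10979 in SoNar-low, a log2 difference of -0.34. Ccnb2 had 4361 in SoNar-high and 5404 in SoNar-low, a log2 difference of -0.45. Ccnb1, the main mitotic cyclin, was measured by 3 probes, with log2 differences from -0.48 to 0.08 and a mean of -0.28. Cdk1 exceeded the mean of these cyclin genes, -0.36, by 2.23, a contrast that was chosen after the value of Cdk1 was known. This contrast lay between 1.40 and 2.23 over the 12 settings, lowest with the brightest probe alone. The phosphatase gene Cdc25b had 2956 in SoNar-high and 3743 in SoNar-low, a log2 difference of -0.49. Cdc25c, its relative that acts at the entry into mitosis, had 544.5 in SoNar-high and 385 in SoNar-low, a log2 difference of 0.36.

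The promoter windows below are shown for the CHR and CCAAT matches that most member windows hold, and the Birc5 window holds neither. They set Cdk1, which was at least 2-fold higher, beside Ccnb2, Cdca8 and Birc5, which were not. Each window runs from 250 bases before to 50 bases after the annotated start on the gene's own strand, from RefSeq on GRCm38.p6. The Cdk1 window is chr10:69352863-69353162 (minus strand), the Ccnb2 window chr9:70421505-70421804 (minus strand), the Cdca8 window chr4:124936868-124937167 (minus strand) and the Birc5 window chr11:117848987-117849286 (plus strand). Capitals mark matches on either strand to the CHR letters TTTGAA or TTCGAA and to the CCAAT box letters CCAAT, which read ATTGG where the box is on the other strand.
Cdk1: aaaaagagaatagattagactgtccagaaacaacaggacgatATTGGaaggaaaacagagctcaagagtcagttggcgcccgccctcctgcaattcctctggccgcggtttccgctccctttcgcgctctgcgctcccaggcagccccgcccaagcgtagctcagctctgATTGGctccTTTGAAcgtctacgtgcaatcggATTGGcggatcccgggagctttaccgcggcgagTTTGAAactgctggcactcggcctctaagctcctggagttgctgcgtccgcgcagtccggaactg
Ccnb2: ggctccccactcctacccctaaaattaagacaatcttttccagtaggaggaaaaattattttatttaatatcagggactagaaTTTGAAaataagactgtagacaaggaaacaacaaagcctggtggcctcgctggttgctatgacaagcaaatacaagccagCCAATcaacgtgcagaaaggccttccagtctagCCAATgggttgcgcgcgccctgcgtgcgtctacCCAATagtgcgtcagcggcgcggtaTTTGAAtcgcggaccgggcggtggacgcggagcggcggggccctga
Cdca8: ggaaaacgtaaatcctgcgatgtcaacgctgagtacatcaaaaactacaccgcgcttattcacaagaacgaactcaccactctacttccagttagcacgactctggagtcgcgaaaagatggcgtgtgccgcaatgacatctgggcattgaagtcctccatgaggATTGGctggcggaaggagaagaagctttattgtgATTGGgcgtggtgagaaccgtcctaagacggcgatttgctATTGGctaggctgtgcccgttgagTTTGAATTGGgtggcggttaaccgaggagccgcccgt
Birc5: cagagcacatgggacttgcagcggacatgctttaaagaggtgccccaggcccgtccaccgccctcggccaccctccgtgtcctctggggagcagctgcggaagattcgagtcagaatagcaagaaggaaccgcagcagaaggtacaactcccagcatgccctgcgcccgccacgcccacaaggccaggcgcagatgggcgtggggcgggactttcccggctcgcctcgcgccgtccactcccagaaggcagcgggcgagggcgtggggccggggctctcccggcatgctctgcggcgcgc

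The Cdk1 window held 2 CHR matches, which began 71 and 15 bases before the start, and 3 CCAAT matches. The Ccnb2 window held 2 CHR and 3 CCAAT matches, the CCAAT matches beginning 33 bases apart from one to the next. In Cdca8 the 1 CHR match shared 1 base with the last of its 4 CCAAT matches. The Birc5 window held neither set of letters. Promoter windows were at hand for 28 members, in 30 windows because Prc1 and Bub3 have 2 each, and not for Ccna2, Cdc25c, Aurkb, Incenp, Kif20a and Tpx2. Of the 30 windows, 24 (80%) held a CHR match and 25 (83.3%) a CCAAT match, and 23 (76.7%) held both. Of all 32851 windows of the same length, 19.2% held a CHR match, 37.4% a CCAAT match and 7.52% both. Among the 21263 windows of protein-coding genes these shares were 17.6%, 38.2% and 7.11%. A CHR match began downstream of a CCAAT match in all 23 member windows with both, and in 53.3% of the 2472 windows with both among all genes. Any 1 such pair sufficed, so windows with more matches meet this more easily. Of member windows 56.7% held 2 or more CCAAT matches, beside 11.7% of all windows, so these shares do not compare order alone. A pair of CCAAT matches beginning 30 to 36 bases apart, a range chosen after the printed windows were seen, was present in 23.3% of member windows and in 1.87% of all windows. The printed windows of Cdk1, Ccnb2 and Cdca8 hold such pairs and are counted in the members' share, so that share partly repeats the choice of range. Windows with both kinds of match belonged to genes on either side of the median difference, such as Cdk1, Ttk and Bub3 on the higher side and Plk1, Aurka and Prc1 on the lower. A match is a description of the letters and not of a bound factor.

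**Figure D2:**
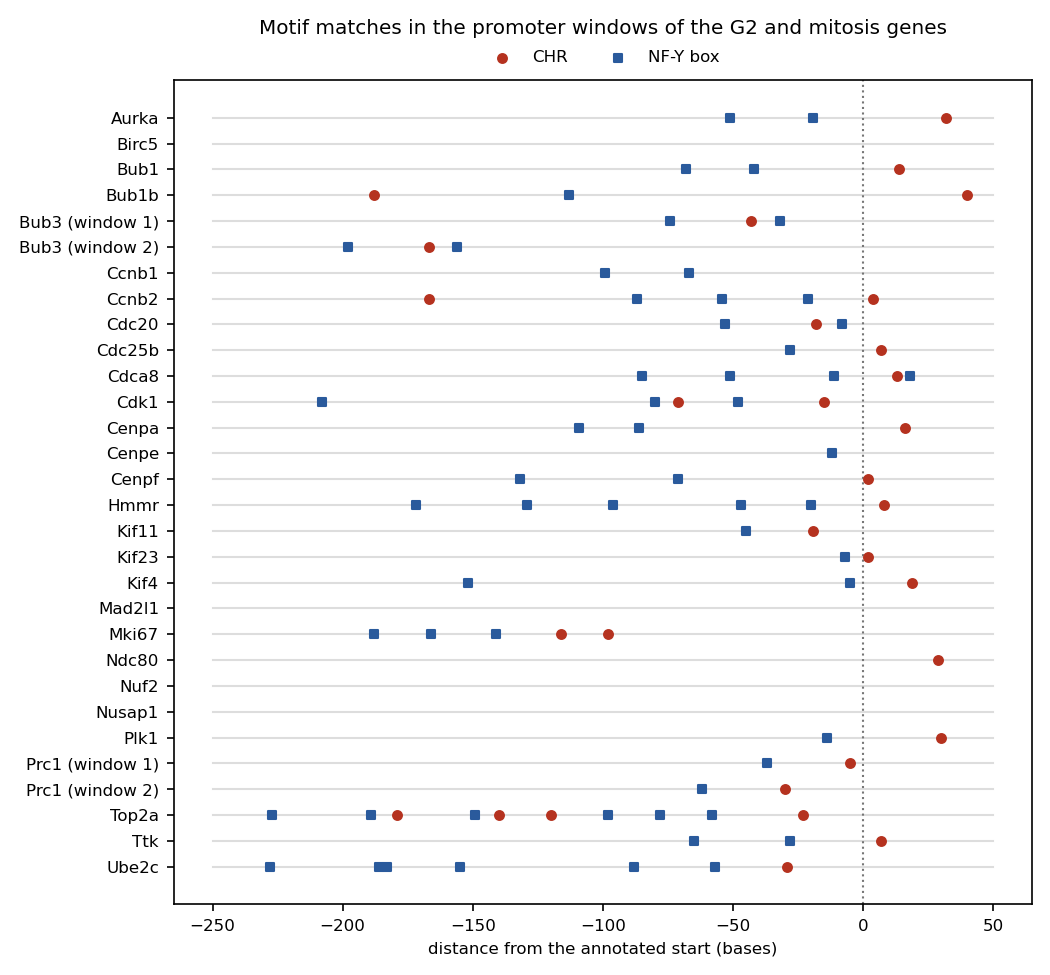
Positions of CHR matches (red circles) and of CCAAT matches (blue squares, labelled NF-Y box) in the 30 promoter windows of 28 members, with the distance of the first base of the match from the annotated start in bases on the horizontal axis. Most matches lie within 100 bases of the start, 24 of 31 CHR matches and 39 of 58 CCAAT matches, and 4 windows, of Birc5, Mad2l1, Nuf2 and Nusap1, are empty.

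The other mitotic kinase genes stayed within 2-fold but spread widely. Plk1 and Aurka were among the lowest members, and Ttk was the highest after Aurkb and Cdk1. The median of these 4 genes, -0.63, was the lowest of the 8 roles. Plk1, the polo kinase that matures the centrosomes, had 2190 in SoNar-high and 3442 in SoNar-low, a log2 difference of -0.80. Bub1, a kinase of the spindle checkpoint, was spotted 10 times on each array with 1 probe. Its signal ran from 2398 through a median of 2529 to 3010 in SoNar-high, and from 2606 through a median of 3125 to 3864 in SoNar-low. These 2 ranges overlap, although each of the 10 spots was dimmer in SoNar-high. The log2 difference of Bub1 was -0.47 ± 0.17 (SD over 10 spots), from -0.77 to -0.23, which shows how far a single spot can stray on these arrays. Ttk, the checkpoint kinase also called MPS1, had 284 in SoNar-high and 149.5 in SoNar-low. Its log2 difference of 0.78, with a spot error of 0.23, was the highest value below the 2-fold mark.

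The spindle checkpoint proteins delay anaphase until every kinetochore is attached. Bub3, which carries BUB1 and BUBR1 to the kinetochore, had 6924 in SoNar-high and 4807 in SoNar-low, a log2 difference of 0.38. Bub1b, which encodes BUBR1, had 4264 in SoNar-high and 5227 in SoNar-low, a log2 difference of -0.44. With median scaling both partner genes were below 0, Bub3 at -0.23 and Bub1b at -1.05. Mad2l1, the inhibitor of CDC20, was measured by 3 probes with log2 differences from -0.41 to 0.15 and a mean of -0.04.

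Of the kinetochore and centromere genes, 4 of 5 were measured. Ndc80 and Nuf2 encode a pair of proteins that bind each other and hold the microtubule. Ndc80 had 670.1 in SoNar-high and 473 in SoNar-low, a log2 difference of 0.36. Nuf2 had 691 in SoNar-high and 959 in SoNar-low with probe A_55_P2076048, a log2 difference of -0.62, and its other probe was well above background on neither array. Cenpa, the histone H3 variant of centromeres, had a log2 difference of -0.04, and Cenpe, a kinetochore motor, one of -0.37. The probe of Cenpf had 38.1 in SoNar-high, well above background there, and 33.98 in SoNar-low, not well above background. No fold is given for Cenpf, since its level in SoNar-high lay under the lowest detected level of the SoNar-low array.

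The motor and spindle genes were the largest role, with 8 genes, and 7 of them were below 0, with a median log2 difference of -0.37. Prc1, the bundler of the central spindle, had the lowest value of all members, with 2941 in SoNar-high and 4629 in SoNar-low and a log2 difference of -0.80. Kif4, a chromosome motor that works with PRC1, had 742 in SoNar-high and 1056 in SoNar-low, a log2 difference of -0.65. The kinesin genes Kif20a (-0.41), Kif11 (-0.16) and Kif23 (-0.12) and the spindle genes Hmmr (-0.41) and Nusap1 (-0.32) lay in between on the log2 scale. Tpx2, the activator of Aurora A, was the exception at 0.23, from probes at 0.14 and 0.32. Of these 8 genes, the number below 0 depended on the scaling. All 8 were below 0 under median scaling, as were 6 after quantile normalization, after normexp background correction and in the authors' deposited table. A 75th percentile over only those spots that both arrays detected left 5 below 0, where Kif11 was at 0.051 and Kif23 at 0.094.

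The partners of the anaphase-promoting complex and the general proliferation markers stayed within 2-fold, with Ube2c the highest of them at a mean log2 difference of 0.43. Cdc20, its activator in mitosis, had 13390 in SoNar-high and 13437 in SoNar-low, a log2 difference of -0.15. Ube2c, the ubiquitin-conjugating enzyme of the complex, had probes that disagreed. Probe A_51_P451151 had 2995 in SoNar-high and 1522 in SoNar-low, while probe A_55_P1996941 had 2427 in SoNar-high and 2157 in SoNar-low, for log2 differences of 0.83 and 0.03. Mki67, which encodes the proliferation antigen Ki-67, had 14048 in SoNar-high and 13613 in SoNar-low with probe A_51_P253803. With its other probe it had 11112 in SoNar-high and 9309.8 in SoNar-low, and its mean log2 difference was 0.01. Top2a, the DNA topoisomerase that untangles sister chromatids, had 3511 in SoNar-high and 3220.4 in SoNar-low, a log2 difference of -0.02.

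**Figure D3:**
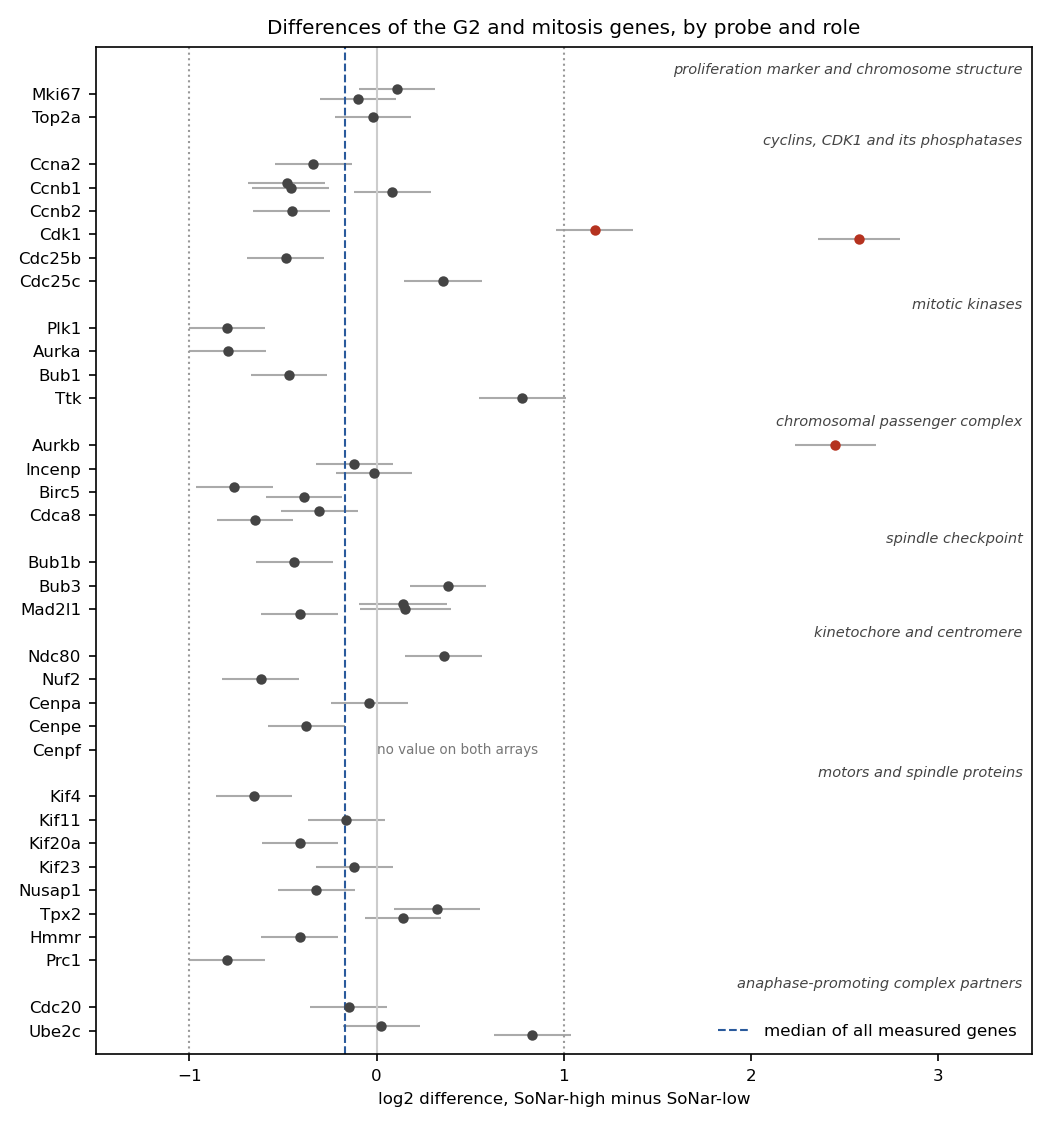
Difference on the log2 scale (SoNar-high minus SoNar-low) for each measured member probe (points, several per gene where there are several probes), grouped by role. Bars are the scanner software's error of the spots, dotted lines mark 2-fold, the dashed line marks the median of all genes (-0.17), and red points are the probes of Aurkb and Cdk1, the only genes past 2-fold.

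Probes of 1 gene did not always give the same value, which bears on the 24 members with 1 measured probe, Aurkb among them. In the 9 members with several measured probes the median gap between the highest and the lowest probe was 0.37 on the log2 scale, beside 0.47 over all 2394 such genes. The gap reached 1 in 1 of the 9 members, Cdk1, and in 16.7% of all such genes. In 6 of the 9 members the probes shared a sign, and in Ccnb1, Mad2l1 and Mki67 they did not.

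The spread of differences also depended on the level, and members were unevenly distributed over levels. In 4 equal bands of the mean level over both arrays, a split chosen after the data were seen, the dimmest band, in which 8.75% of genes reached 2-fold upwards, held 0 members and the brightest held 20. In the brightest band 1.14% of all genes reached 2-fold upwards, as did 0 of the 20 members, and the median difference was -0.37 for the members and -0.34 for all genes of the band. Aurkb fell in the band above the dimmest, where 6.58% of genes reached 2-fold upwards, and Cdk1 in the next, where 3% did. The 6 members in the band of Aurkb, which also held Cdc25c, Kif11, Mad2l1, Ndc80 and Ttk, had a median difference of 0.36, beside -0.08 for all genes of that band.

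**Figure D4:**
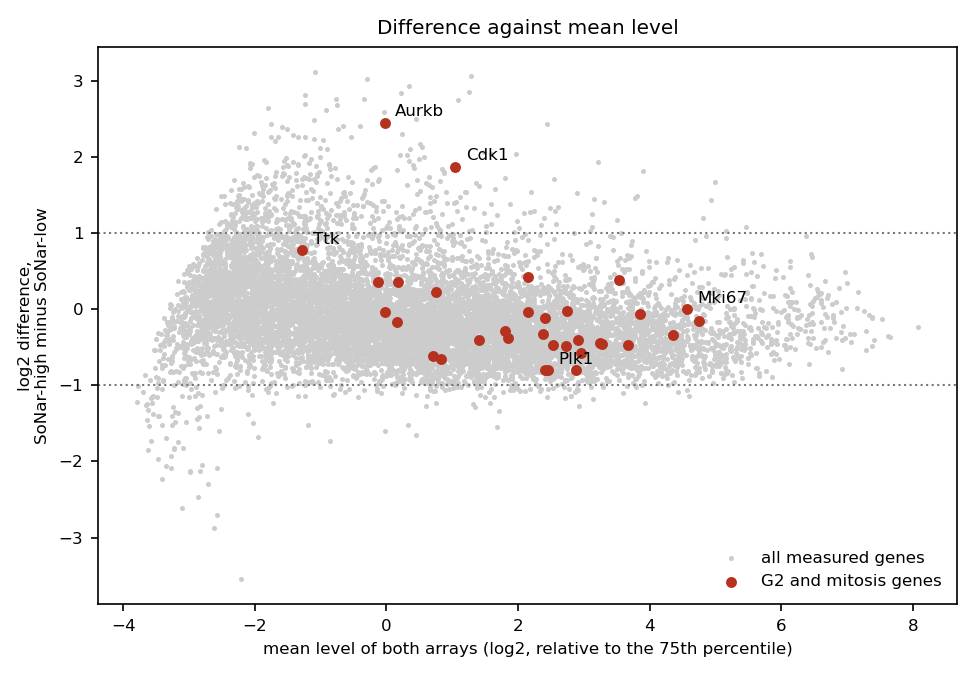
Log2 difference, SoNar-high minus SoNar-low, against the mean level of both arrays on the log2 scale for the 10517 genes measured on both arrays (grey) and the 33 measured members (red), with dotted lines at 2-fold. Most members lie at the brighter levels inside the main cloud, and Aurkb (2.45) and Cdk1 (1.87) lie above it.

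Another 105 genes of mitosis, in 5 lists by function, were described in the same way, and 99 were measured. Of these, 2 were at least 2-fold higher in SoNar-high, Kntc1 and Gtse1, and 1 was at least 2-fold lower, Smc2. The share of 2.02% that was higher lies under the 4.87% of all genes, and the median log2 difference was -0.31. This comparison was not matched for level. Over the 4 level bands the share of all genes fell from 8.75% in the dimmest to 1.14% in the brightest. The median difference of all genes fell from 0.09 to -0.34 in the same order. The call of Gtse1 was lost with median scaling. That of Smc2 was lost with quantile normalization, normexp, the detected-spot percentile, centring on the median of all genes and in the authors' deposited table, whereas with median scaling 14 genes of its list were at least 2-fold lower. Kntc1, a kinetochore protein of the checkpoint, had 768 in SoNar-high and 214 in SoNar-low, a log2 difference of 1.70. Gtse1, a microtubule-binding protein of G2, had 1288 in SoNar-high and 397 in SoNar-low, a log2 difference of 1.55. Each rests on 1 probe, as Aurkb does.

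The list with the lowest median was that of condensin, cohesin and separase, the proteins that compact chromosomes and hold and release sister chromatids. Its median log2 difference was -0.57 over 18 measured genes, and 17 of these lay below the median of all genes. That comparison was not matched for level either, and in the brightest level band the median of all genes was -0.34. Smc2, a core subunit of condensin, had 1478 in SoNar-high and 2812 in SoNar-low, a log2 difference of -1.07. The cohesin gene Stag2 had a log2 difference of -0.99, while those of Stag1 (-0.32) and of the separase gene Espl1 (0.19) were the highest of the list. Relative to all genes its median lay between -0.69 and -0.22 in the 12 settings, so it stayed below in each.

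The other 4 lists lay closer to all genes. Spindle motors and cytokinesis genes had a median of -0.42 over 17 genes, from Ckap5 (-0.85) and Anln (-0.79) to Kif2c (0.39) and Dlgap5 (0.72). The Dlgap5 value averages probes that disagreed, at -0.02 and 1.45. For the further kinetochore and centromere genes the median was -0.20 (31 genes), with Spc25 (-0.88) and Sgo1 (-0.84) lowest and Knl1 (0.25) next below Kntc1. Subunits and regulators of the anaphase-promoting complex had a median of -0.33 over 16 genes, from Anapc4 (-0.90) and Anapc1 (-0.61) to Anapc5 (0.57) and Cdc27 (0.70). The Anapc5 value likewise averages probes of opposite sign, at -0.78 and 1.93. For G2 regulators and the MuvB and FOXM1 genes the median was -0.09 (17 genes), with Pbk (-0.97) and Lin54 (-0.63) lowest. Foxm1, the transcription factor that drives many G2 genes, had a log2 difference of 0.38, next below Gtse1.

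**Figure D5:**
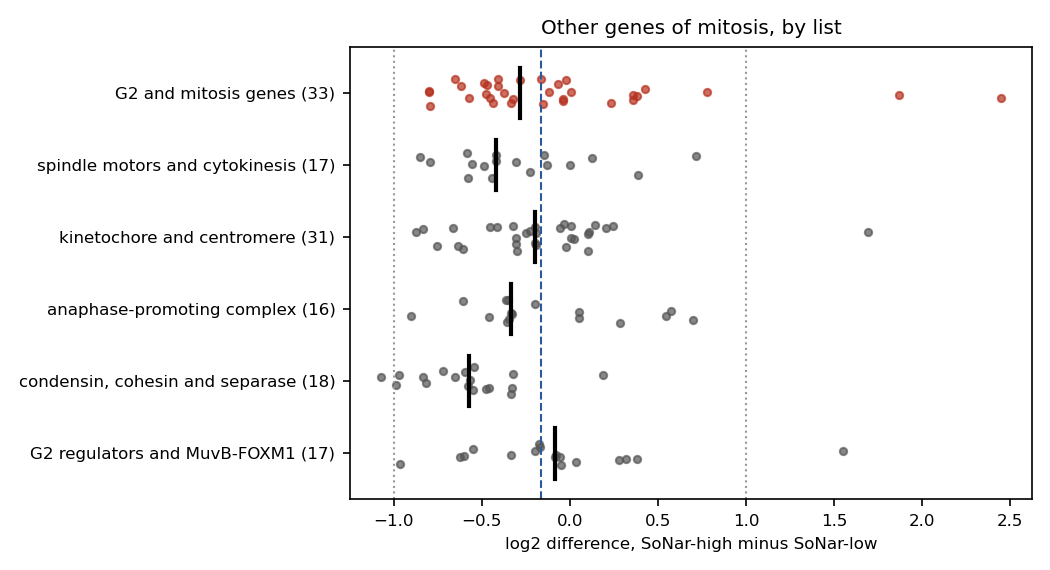
Difference on the log2 scale (SoNar-high minus SoNar-low) for the measured members and genes of the 5 mitosis lists (points, number of genes in brackets), with list medians as black bars, the median of all genes as a dashed line and 2-fold as dotted lines. Among these the members in red hold the highest points, Aurkb and Cdk1, and the condensin, cohesin and separase genes have the lowest median (-0.57).

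The label of B-ALL cells was set against marker genes. Of 16 B lineage markers, 12 were measured, with Cd79b at 14376 in SoNar-high and 12625 in SoNar-low, while on neither array were Igll1, Il7r, Rag1 and Rag2 well above background. The B lineage list had a median log2 difference of -0.20, from Ebf1 (-0.92) to Cd22 (1.16). Markers of other marrow cells were also present, and their list medians were above 0. The summed signals of the lists, which are not scaled and rest most on the brightest genes, ran both ways. They cover only probes measured on both arrays. Detected genes numbered 10 in SoNar-high and 5 in SoNar-low for the erythroid list, and 9 and 6 for T and natural killer cells. In the same order they numbered 13 and 11 for neutrophils, 6 and 3 for monocytes and 7 and 5 for stroma. The B lineage list had 12 on each array. Of all non-control spots, 72.9% were well above background in SoNar-high and 44.8% in SoNar-low. The neutrophil list had 10 of its 11 measured genes above the all-gene median, a median of 0.48 and signals that summed to 26683 in SoNar-high and 19446 in SoNar-low over 12 probes, from Prtn3 (-0.32) to Ngp (1.29). Of 6 measured T and natural killer cell genes 4 were at least 2-fold higher, beside 4.87% of all measured genes. Their log2 differences ran from Lck (-0.94) to Cd4 (1.72), with a median of 1.17. Their signals summed to 3454 in SoNar-high and 2474 in SoNar-low. Of the 4, Gzma, Prf1 and Cd3e were dim in SoNar-low, at 62.3, 77.6 and 112, where the lowest detected signal was 46.4. On neither array were Cd3d, Gzmb and Klrd1 well above background. The T and natural killer count of 4 was 1 with median scaling and with normexp, and 2 with quantile normalization and in the authors' deposited table. It was 5 with the detected-spot percentile and after centring. With no filter on dim probes it was 5 of 12 genes, beside 13.5% of all genes. Where 1 array sufficed for detection it was 6 of 9 genes, beside 20% of all genes. The erythroid list had a median of 0.48 over 5 genes, with summed signals of 21994 in SoNar-high and 28356 in SoNar-low. Most of these sums was Hemgn, with 14153 in SoNar-high and 22791 in SoNar-low. Every other measured gene of the list had a log2 difference above 0 in the main setting. The stromal list had a median of 0.69 over 5 genes, with summed signals of 9179 in SoNar-high and 13232 in SoNar-low. Here most of the sums was Alpl, with 7773 in SoNar-high and 12517 in SoNar-low, and every other measured gene was above 0 in the main setting. The monocyte list had a median of 0.37 over 3 genes, with summed signals of 685 in SoNar-high and 426 in SoNar-low, and its median was -0.23 with quantile normalization, -0.02 with normexp and -0.27 in the authors' deposited table. With median scaling the medians of the neutrophil, erythroid and monocyte lists were also below 0, at -0.13, -0.14 and -0.25, and relative to all genes median scaling leaves them as they were. Of the erythroid genes Hba-a1 was highest at 1.88 and Hemgn lowest at -0.83, Csf1r (1.25) and Mrc1 (-0.56) marked the ends of the monocyte list, and Kdr (1.54) and Alpl (-0.83) those of the stromal list. The part of these cells in the values of Aurkb, Cdk1 and the other division genes was not tested.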

How the data were processed

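Total RNA of the sorted cells was labelled with Cy3 and hybridised to 1 Agilent array per group, per the labels' protocols. The deposited scanner files hold linear intensity values, per the file headers with background subtraction and detrending done by the scanner software, Agilent Feature Extraction 11.0.1.1. The submitters' processing notes name version 9.1. The authors' value table has log2 values with equal medians of 5.90 and was used as an alternative only. It correlated with log2 of the processed signal with r = 0.995 for SoNar-high and 0.994 for SoNar-low.

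The main value was log2 of the processed signal minus its 75th percentile among the non-control spots of that array. Control spots and 685 outlier spots were left out, repeat spots were averaged, and a probe counted as measured if more of its spots than not were well above background on each array. Probes were named through RefSeq accessions of GRCm38.p6, and 27234 of 39429 had a name. A gene is the mean of its measured probes. All 34 members are accounted for, and of each other mitosis list up to 2 genes from either end are named, of cell type lists 1. The calculation of differences and calls was tested on simulated data. The 34 members and all lists were chosen with earlier results of these data known. No p-value was computed. The error of a difference is propagated from the software's error of each spot. The 11 alternatives were other scalings, filters and probe rules, the authors' table, and normexp background correction of the median signal with an offset of 50. Python 3.11.15, numpy 2.4.6, pandas 2.3.3, R 4.3.3 and limma 3.58.1 were used.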

Additional observations from a re-analysis of the deposited data

Results flagged for a closer look

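One member spot was left out of all comparisons because the software marked it as non-uniform on the SoNar-high array. It belongs to probe A_55_P1983769 of Birc5 and had a processed signal of 1829.75 in SoNar-high and 1716 in SoNar-low, above the upper ends of the middle 95% of the negative control spots, 5.50 for SoNar-high and 13.3 for SoNar-low. Its log2 difference was -0.052, beside -0.76 and -0.39 for the Birc5 probes that were used.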

How the results depend on the processing

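No paired analysis was possible because neither group had a second array, which also kept any array from being left out. Aurkb and Cdk1 were the 2 members at least 2-fold higher in SoNar-high in the main setting and in all 11 alternatives, Aurkb between 1.84 and 2.66 and Cdk1 between 1.16 and 2.08 on the log2 scale. Against 0 members at least 2-fold lower, the count was 13 with median scaling, which lowers every value alike, and 1 (Nuf2, with its undetected probe) with no filter on dim probes. The median over members, -0.28, was -0.90 with median scaling, -0.072 with the percentile over spots well above background on both arrays and -0.12 after centring on the median of measured genes, a setting added after the data were seen together with 1 common limit for both arrays. The excess of Aurkb over its partners, 2.82, was 2.64 with quantile normalization, 2.56 with normexp and 2.47 in the authors' value table, and the cause was not tested. Over all genes, against 512 at least 2-fold higher and 177 lower, the counts were 139 and 3306 with median scaling, 806 and 67 with that detected-spot percentile, 262 and 60 with normexp, 2775 and 1751 with no filter, and 3203 and 174 where 1 array sufficed for detection. The lower count alone was 350 with quantile normalization, 430 in the authors' table, 114 with the common limit and 70 after centring. The lower detection on the SoNar-low array limits what can be measured of dim probes such as that of Cenpf.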
